A study of Rattus norvegicus with 20 samples.

Results

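The RNAs of 9 proteins of the synaptic vesicle and its fusion machinery, from 9 of the 4736 genes named on the array, are described here through 18 of the 8740 probe sets tested. The members were every probe set that the platform's probe table assigns to Vamp1, Vamp2, Snap25, Stx1a, Syt1, Syp, Syn1, Syn2 or Napa alone. Snap25 had 4 probe sets and Syn2 had 3. Vamp1, Vamp2, Stx1a and Napa had 2 each, and Syt1, Syp and Syn1 had 1 each. All 18 were tested, with no filter on low values, and 4 of them (Snap25 U56261_s_at, Stx1a D12519_s_at, Syt1 X52772cds_at and Syn2 rc_AI145494_g_at) were above background on none of the 20 arrays.

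The samples were 20 rat dorsal root ganglion RNA preparations, taken from the operated side and each hybridised to 1 Affymetrix array. They form 8 groups by surgery and day. CCI, chronic constriction injury, is a model in which ligatures are tied loosely around the sciatic nerve, and it was sampled at 14 days (n = 3) and 21 days (n = 3). The groups labelled Seltzer, a name usually given to partial ligation of the sciatic nerve and described in the labels as a transection of it, were sampled at 14 (n = 2), 21 (n = 3) and 50 days (n = 2). Sham surgery was sampled at 14 (n = 2), 21 (n = 3) and 50 days (n = 2). No genotype, drug, strain or age is given in the labels used here, and nothing says whether samples came from separate or pooled animals, so p-values measure the spread between these samples, which may be technical. The ganglion holds sensory neuron cell bodies with Schwann cells and satellite glia, and whether a lower value reflects fewer cells of a type or less RNA per cell cannot be told apart in bulk tissue.

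Synaptic vesicles fuse when a SNARE protein on the vesicle, a VAMP (synaptobrevin), zips together with SNAP-25 and syntaxin-1 on the plasma membrane. Synaptotagmin-1 senses the calcium that triggers fusion, and α-SNAP, the product of Napa, recruits the ATPase NSF that takes the spent complex apart. Synapsins hold vesicles in a reserve cluster, and synaptophysin is an abundant protein of the vesicle membrane. Sensory neurons make these proteins in the ganglion and send them along the axon to terminals in the spinal cord and to the periphery, and VAMPs and SNAP-25 are the proteins that tetanus and botulinum toxins cut.

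Values are intensities on a linear scale as the authors deposited them. Changes are differences of group means of log2(intensity + 16), with values below 0 set to 0, from limma, averaged over the days with equal weight, and a probe set is called when its adjusted p over all 8740 probe sets is below 0.05. Background was read from the negative values of each array, as the 95th percentile of their size, and a probe set was above background where it exceeded this level. For 17 arrays the level was 169 to 326. The 3 exceptions were CCI 21-day replicate 1 (499) and Seltzer 50-day replicates 1 (766) and 2 (599). On those last 2 arrays the GAPDH 3′ to middle ratio, which can rise when RNA is degraded, was 8.89 and 5.10. This ratio was 2.84 and 2.85 on the 50-day sham arrays and at most 2.04 on the 14- and 21-day arrays. On the 50-day Seltzer arrays the actin 3′ to 5′ ratio was 9.88 and 3.94, against at most 2.40 elsewhere. Their GAPDH 3′ to 5′ ratio, however, was 1.16 and 1.29, the lowest of the 20 arrays. All 6 neuron markers measured of 10 listed (among them Uchl1, Prph and Elavl4) were above background in every group. None of the 6 was called after CCI, where their median change was 0.31, and their summed intensity was 20904 to 26406 after CCI and 14051 to 23909 after sham at 14 days, and 31759 to 35039 and 22962 to 57910 at 21 days. After Seltzer, Elavl4 was called lower over the 3 days, and Uchl1 and Prph at 50 days. Of 5 macrophage markers, Lyz2 was called higher after CCI. Skeletal muscle markers varied with group: the summed intensity of the 8 measured was 9935 to 11524 after CCI and 4758 to 5481 after sham at 14 days, but 1601 to 2435 after CCI and 5136 to 5605 after sham at 21 days, and 4241 to 5283 after Seltzer against 1492 to 1785 after sham at 50 days. Their part in the results was not tested.

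After CCI, 4 of the 18 probe sets were called, all lower: 1 of the 2 for Vamp1, 2 of the 4 for Snap25 and 1 of the 3 for Syn2. Of all probe sets tested, 1.10% were called lower and 1.19% higher. The median change of the 18 was -0.53 against 0 over all probe sets, and 13 of the 18 changes were below 0. By limma, 9 of the 18 had an unadjusted p below 0.05, as had 10.7% of all probe sets. After Seltzer surgery 3 were called lower and 1 higher, where 2.46% of all probe sets were called lower and 1.92% higher, and the median change of the 18 was -0.09 against 0.03 over all. Both models were set against the same sham arrays. Without the 3 arrays of highest background, left out after seeing the data, 5 of the 18 were called after CCI, and with only the 14- and 21-day groups none was called after Seltzer. The shares above belong to the main comparisons and not to these settings.

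**Figure D1:**
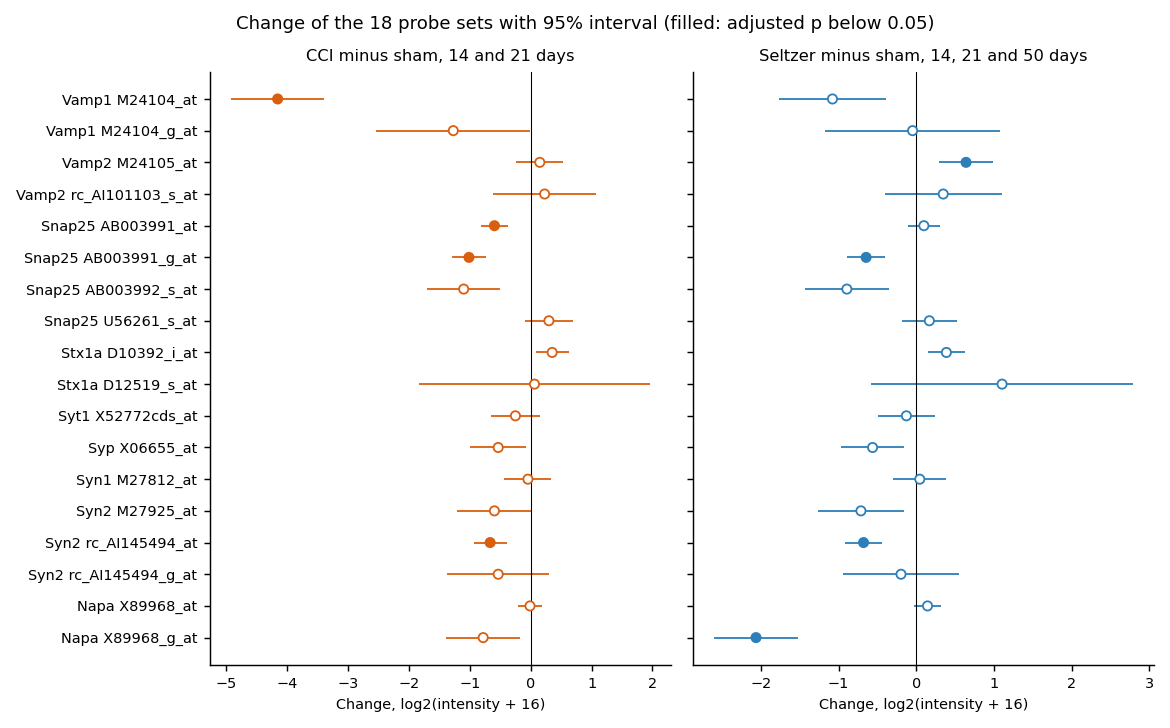
Change of each of the 18 probe sets against sham of the same day, on the log2(intensity + 16) scale with its 95% confidence interval, after CCI (left) and Seltzer surgery (right); filled points have an adjusted p below 0.05. Vamp1 M24104_at lay at -4.16 after CCI, a size that depends on the number added since no CCI array was above background, while both Vamp2 probe sets lay above 0 in both models.

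Vamp1 encodes VAMP1 (synaptobrevin-1), the vesicle SNARE that predominates in many motor and sensory neurons, and Vamp2 encodes its close relative, the main vesicle SNARE of forebrain synapses. Because a Vamp1 probe set read below 0 on every CCI array, the RefSeq sequence of the 250 bases before its annotated start site is shown, from chr4:159698644-159698893 on the + strand of GRCr8. Capitals mark 1 copy of TGACGTCA, the cAMP response element, and 1 of GGGCGG, the GC box bound by Sp1.
Vamp1: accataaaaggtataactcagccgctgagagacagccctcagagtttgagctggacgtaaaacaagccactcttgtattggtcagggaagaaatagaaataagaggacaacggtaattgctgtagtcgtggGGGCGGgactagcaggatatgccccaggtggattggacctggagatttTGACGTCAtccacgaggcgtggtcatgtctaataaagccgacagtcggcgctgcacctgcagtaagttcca

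The 250 bases before the start site were found in RefSeq for 8 of the 9 genes and searched on both strands. TGACGTCA was present in 3 of these 8 and in 1.59% of 33469 rat upstream windows of that length. The GC box, which overlaps neither of the other motifs, was present in 7 of the 8 (all but Syn1) and in 30.5% of all windows. GC content was 50.4% for Vamp1 and 64.8 to 69.6% for the other members, and that of all windows was not compared. The AP-1 site TGANTCA was in none of the 8 and in 6.34% of all windows. The 3 windows around TGACGTCA, in capitals, are shown because they let Vamp1, Napa and Syn1 be set side by side. The motif ends 63, 51 and 182 bases before the start site, in windows at chr4:159698813-159698840, chr1:85915366-85915393 and chrX:3725545-3725572, all on the + strand of GRCr8.
Vamp1: ctggagatttTGACGTCAtccacgaggc
Napa: cagacccgggTGACGTCAacgtagcggg
Syn1: aaaggcgggcTGACGTCActctccagcc
A match describes letters only, and no binding was measured. After CCI the changes of these 3 genes were -4.16 and -1.27 for Vamp1, -0.01 and -0.78 for Napa, and -0.05 for Syn1.

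Vamp1 fell on M24104_at after CCI, to values below background at both days. At 14 days the sham arrays read 224 and 233 and the CCI arrays -30.7, -60.7 and -6.03. At 21 days sham read 368, 266 and 326 and CCI -1.84, -44.0 and -47.8. Every CCI value was below 0 and every sham value of those days at or above 224, so the groups did not overlap. The group means were 228 ± 6.39 (SD, n = 2) and -32.5 ± 27.4 (SD, n = 3) at 14 days, and 319.9 ± 51.2 (SD, n = 3) and -31.2 ± 25.5 (SD, n = 3) at 21 days. The fall averaged over both days was -4.16 on the log2 scale (SE 0.36, adjusted p = 2.12e-05, lower on 6 of 6 CCI arrays). Since no CCI array was above background, that log2 size depends on the number added, and in intensity the fall was at least 1.08-fold. The probe set was above background on 1 of 2 sham arrays at 14 days and on 3 of 3 at 21 days, 4 of 20 arrays in all. The call held under each of the 30 other settings run, with a change between -8.08 (1 added in place of 16) and -0.40 (values below 200 set to 200, adjusted p = 0.00287). It held at each day alone, at -3.93 (adjusted p = 0.000869) at 14 days and -4.38 (adjusted p = 0.000313) at 21 days, except that at 14 days it was lost with values below 200 set to 200, at -0.18 (adjusted p = 0.874).

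After Seltzer surgery the same Vamp1 probe set lay between sham and CCI. It read 33.5 and 128 at 14 days and 227, 29.0 and 82.4 at 21 days, each array below every sham array of its day and above every CCI array. None of these 5 values was above background. The change was -1.53 (adjusted p = 1) at 14 days, -1.70 (adjusted p = 0.278) at 21 days and -1.08 (SE 0.32, adjusted p = 0.0776) over the 3 days, so Seltzer was not called. CCI minus Seltzer over 14 and 21 days was -2.54 (SE 0.36, adjusted p = 0.0025) with no array of either group above background, so the size depends on the number added. It was the only member called in that comparison, where 0.446% of all probe sets were called lower and 0.481% higher. That call was lost when the fit held just the groups set against each other (-2.54, adjusted p = 0.0583) and with values below 200 set to 200 (-0.03, adjusted p = 0.875). At 50 days both groups lay below 0, at -183 and -32.3 for sham and -507 and -292 for Seltzer, so that day holds no measured Vamp1 level on this probe set.

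The second Vamp1 probe set, M24104_g_at, built on the same sequence record, read lower after CCI but was not called. Sham arrays read 226 and 325 at 14 days and 374, 238 and 361 at 21 days, against 127, 134 and 249 at 14 days and -61.7, 205 and 207 at 21 days after CCI. The groups overlapped at 14 days and were apart at 21 days, where CCI replicate 1, an array of high background, gave the one value below 0. The change over both days was -1.27 (SE 0.58, adjusted p = 0.463). After Seltzer it read 202 and 181 at 14 days, 193, 185 and 308 at 21 days and 387 and 272 at 50 days, and sham at 50 days 115 and 271. Its Seltzer change was -0.05 (adjusted p = 1). Unequal change of the 2 Vamp1 probe sets was not shown. Their changes differed by -2.89 after CCI (exact permutation within day, two-sided, p = 0.015, adjusted p = 0.034 over 34 such pairs), but no CCI array of M24104_at was above background, and with values below 200 set to 200 the difference was 0.06 (exact permutation p = 0.605).

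Vamp2 was not called after CCI on either probe set. M24105_at, above background on all 20 arrays, read 920.2 and 739 in sham and 626, 619 and 971 after CCI at 14 days, and 444, 615 and 690.3 (sham) and 934, 637 and 893 (CCI) at 21 days. The groups overlapped at both days. The change was 0.15 (SE 0.18, 95% interval -0.24 to 0.54, adjusted p = 0.87). The second probe set, rc_AI101103_s_at, read between 468 and 658 on the 14-day CCI and sham arrays, and between 498 and 646 on the 21-day ones except CCI 21-day replicate 1, which read 3534. Its change was 0.23 (SE 0.39, adjusted p = 0.954). On the Seltzer arrays this probe set read 621 and 936 at 14 days, 343, 517 and 525 at 21 days and 2416 and 2283 at 50 days. Sham read 1025 and 1100.0 at 50 days. The Seltzer change of rc_AI101103_s_at over 14, 21 and 50 days was 0.35 (SE 0.35, adjusted p = 0.712), not called. By day it was 0.28 at 14 days, -0.37 at 21 days and 1.13 at 50 days. At 21 days that of M24105_at was 0.72.

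Vamp2 was called higher after Seltzer surgery on M24105_at alone of its probe sets, with the difference at the later days. It read 868 and 817 at 14 days, where it overlapped sham, and 836, 785 and 1335 at 21 days, where every array lay above the sham arrays. At 50 days it read 1473 and 1225 against 578 and 598 in sham, a change of 1.17 (adjusted p = 0.0173) that was lost in 5 of 28 other settings. These were arrays centred on their median (0.83, adjusted p = 0.115), only the groups compared (0.0532), and leaving out Seltzer replicate 1 (0.105) or Sham replicate 1 (0.0794) or 2 (0.0778). The change over the 3 days was 0.64 (SE 0.16, 1.57-fold, adjusted p = 0.0389), and it was lost in 15 of 29 other settings. Among these were centring each array on its median (0.55, adjusted p = 0.128) and the 14- and 21-day arrays alone (0.38, adjusted p = 1). Of the 15, 12 left out 1 array, and without Sham 14-day replicate 2 the adjusted p was 0.11.

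Compared within arrays, the change of Vamp1 lay below that of Vamp2. After CCI the difference depended on how values near background were treated, and in both models on which probe sets were compared. For the brighter probe set of each gene, M24104_g_at and M24105_at, the CCI change of Vamp1 minus that of Vamp2 was -1.42 (exact permutation within day, two-sided, p = 0.01, adjusted p = 0.0262). The smallest p this design allows is 0.005. With values below 200 set to 200 it was -0.61 (exact permutation p = 0.06, adjusted p = 0.136), and it also missed the threshold without each Sham 21-day array in turn (exact permutation p = 0.13, 0.09 and 0.1). For Seltzer it was -0.69 (exact permutation p = 0.0167, adjusted p = 0.0354), and -0.77 with values below 200 set to 200 (exact permutation p = 0.00556, adjusted p = 0.027). M24104_g_at was above background on 8 of the 20 arrays and on none at 50 days. The Seltzer change of M24105_at (0.64), which enters this difference, was lost in 15 of 29 other settings. M24104_at was above background on no CCI or Seltzer array, so the size of its log2 differences from Vamp2 depends on the number added. With 16 added they were -4.31 against M24105_at and -4.39 against rc_AI101103_s_at after CCI (adjusted exact permutation p = 0.0189 for each), and -1.72 and -1.43 after Seltzer (0.0189 and 0.027). With values below 200 set to 200 they were -0.55 against M24105_at and -0.63 against rc_AI101103_s_at after CCI (adjusted exact permutation p = 0.17 and 0.26), and -0.89 and -0.60 after Seltzer (0.027 and 0.0601). With M24104_g_at against rc_AI101103_s_at the difference was -1.50 after CCI (exact permutation p = 0.07) and -0.39 after Seltzer (exact permutation p = 0.158).

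**Figure D2:**
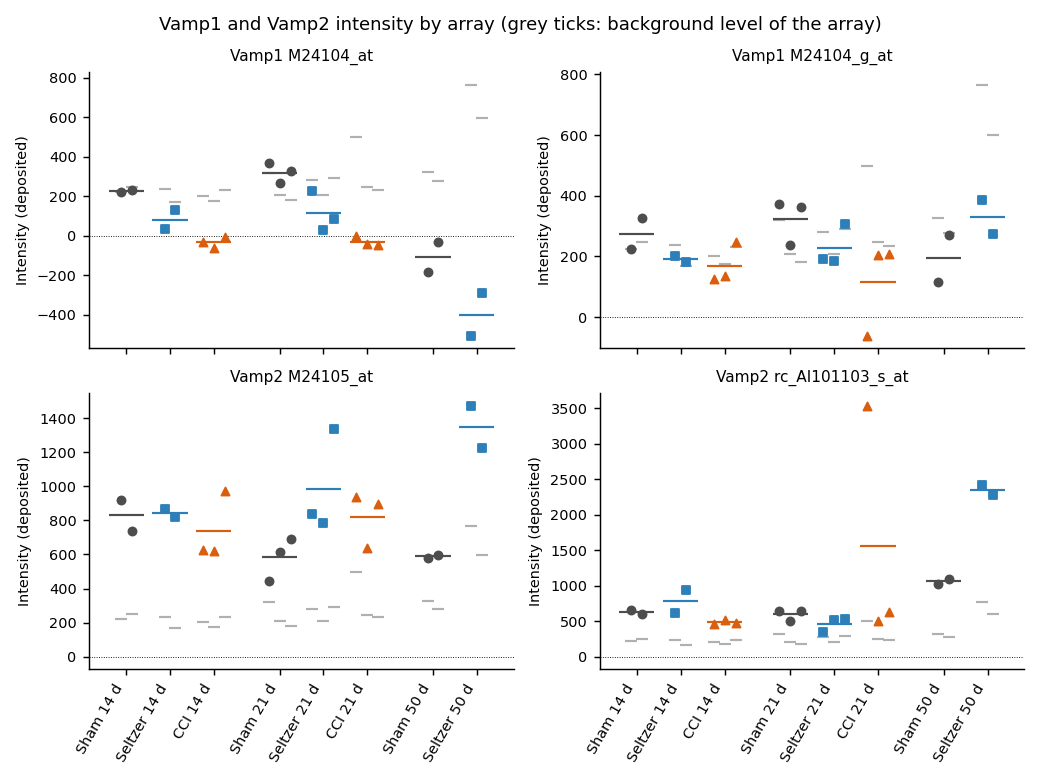
Deposited intensity of the 2 Vamp1 and 2 Vamp2 probe sets on each of the 20 arrays by group, with the group mean as a bar and grey ticks for the background level of each array. On Vamp1 M24104_at all 6 CCI arrays lie below 0 while the 14- and 21-day sham arrays lie between 224 and 368; on Vamp2 M24105_at the CCI and sham arrays overlap.

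Across the 8 group means, the genes most like Vamp1 M24104_g_at among 1349 probe sets above background on at least 10 arrays were Hikeshi (Pearson r = 0.88), Snap25 on AB003991_at (0.83) and Dgkz (0.81). Those most like Vamp2 M24105_at were Ap2b1 (0.92), Cyp1b1 (0.92) and Canx (0.91). These are descriptions over 8 points that share arrays, and carry no test. M24104_g_at itself was above background on 8 of the 20 arrays. Its r with Snap25 AB003991_at over the single arrays was 0.45, and that of Vamp1 M24104_at over the group means was 0.35.

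Snap25 encodes SNAP-25, which is anchored to the plasma membrane and gives the fusion complex a pair of its helices. Of its 4 probe sets, 2 were called lower after CCI, where 1.10% of all probe sets were, and AB003992_s_at read lower without a call. The strongest was AB003991_g_at. Sham arrays read 712 and 805 at 14 days and 911, 903 and 968 at 21 days, and CCI arrays 382, 375 and 350.2 at 14 days and 423, 445 and 479 at 21 days. The means were 759 ± 65.2 (SD, n = 2) against 369 ± 16.6 (SD, n = 3), and 927 ± 35.4 (SD, n = 3) against 449 ± 28.1 (SD, n = 3). The values did not come near to overlapping at either day. The change was -1.01 (SE 0.13, 2.06-fold lower, adjusted p = 0.000663, lower on 6 of 6 arrays). It was -1.01 at 14 days (adjusted p = 0.00986) and -1.02 at 21 days (adjusted p = 0.0107). At 14 days the call was lost without Sham replicate 1 (adjusted p = 0.0532) or replicate 2 (0.104) and with arrays centred on their median (-0.88, adjusted p = 0.151), and at 21 days without the 3 arrays of highest background (-0.98, adjusted p = 0.0694).

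AB003991_at, on the same sequence record, was above background on all 20 arrays. Sham read 1203 and 1033 at 14 days and 1407, 1242 and 1382 at 21 days, and CCI 682, 803 and 863 at 14 days and 914, 751 and 831 at 21 days. All 6 CCI arrays read at or below 914 and all 5 sham arrays at or above 1033. The change was -0.60 (SE 0.10, 1.52-fold lower, adjusted p = 0.00744). The call was lost with the dimmest 33.3% of probe sets left out (adjusted p = 0.0652) and without Sham 14-day replicate 1 (-0.54, adjusted p = 0.0503). The 21-day change of -0.68 had an adjusted p of 0.0377, lost in 17 of 29 other settings with adjusted p up to 0.186, and the 14-day change of -0.51 was not called (adjusted p = 0.142). The 2 probe sets of this record differed in their CCI change by 0.42 (exact permutation p = 0.01, adjusted p = 0.0262), with the fall smaller on AB003991_at.

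AB003992_s_at read 313 and 392 at 14 days and 943, 648 and 449 at 21 days in sham, and 267, 216 and 165 at 14 days and 237, 254 and 167 at 21 days after CCI. All CCI arrays lay below the sham arrays of their day, and the sham arrays of 21 days spread the most. The change was -1.10 (SE 0.28, 2.23-fold lower, adjusted p = 0.0658), not called, though it passed in 8 of 30 other settings, with adjusted p between 0.0155 and 0.0463 there. The fourth probe set, U56261_s_at, stayed between -65.3 and 20.4 on all arrays and carried no measurable signal.

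After Seltzer surgery the Snap25 group means on AB003991_g_at, AB003991_at and AB003992_s_at at 14 and 21 days lay between those of sham and CCI. AB003991_g_at read 537 and 459.6 at 14 days and 755, 541 and 517 at 21 days, below every sham array and above every CCI array of the day. The changes were -0.59 (adjusted p = 0.959) and -0.62 (adjusted p = 0.253), not called by day. At 50 days it read 128 and 132 against 299 and 168 in sham, all below background (-0.72, adjusted p = 0.0334). That call was lost in 6 of 28 other settings, among them values below 200 set to 200 (-0.27, adjusted p = 0.557) and leaving out Sham replicate 1 (-0.33, adjusted p = 0.3) or either Seltzer array (0.1 and 0.128). The mean over the 3 days was -0.65 (SE 0.11, adjusted p = 0.00567), lost with only the 14- and 21-day groups at about the same size (-0.61, adjusted p = 0.105). AB003992_s_at read 254 and 216 at 14 days and 552, 384 and 263 at 21 days, with a change of -0.89 (adjusted p = 0.0628), which passed with the replicate number as a block.

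AB003991_at went the other way at the last day. It read 1089 and 899 at 14 days and 1197, 859 and 1250.2 at 21 days, then 1569 and 1684 at 50 days against 906 and 998 in sham. The 50-day change was 0.76 (adjusted p = 0.00988). This call was lost with arrays centred on their median (0.43, adjusted p = 0.257) and with only the groups compared (adjusted p = 0.052). It was also lost without Seltzer replicate 2 (0.71) or Sham replicate 1 (0.70). The change over the 3 days was 0.10 (adjusted p = 0.689). The 2 probe sets of this record differed by 0.74 after Seltzer (exact permutation p = 0.00278, adjusted p = 0.0189). CCI minus Seltzer was -0.36 (adjusted p = 0.178) on AB003991_at and -0.41 (adjusted p = 0.253) on AB003991_g_at, so a difference between the models was not called for Snap25.

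**Figure D3:**
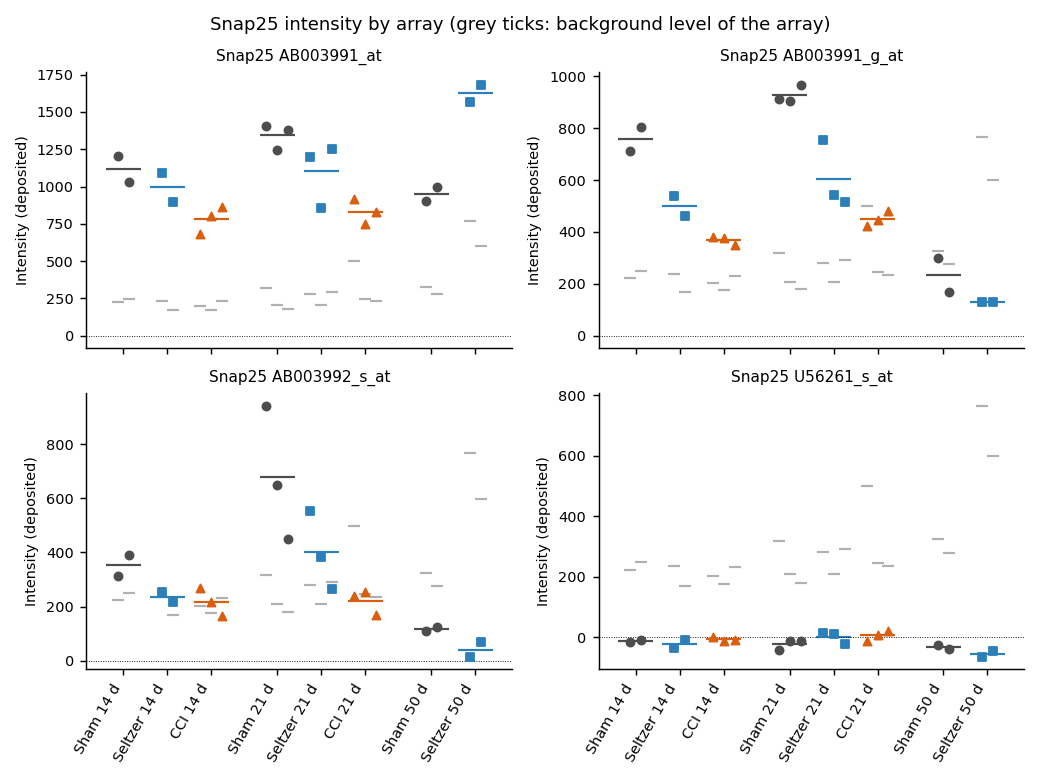
Deposited intensity of the 4 Snap25 probe sets on each array by group, with group means as bars and grey ticks for the background level of each array. On AB003991_g_at the sham arrays lie between 712 and 968 at 14 and 21 days and the CCI arrays between 350.2 and 479; U56261_s_at stays near 0.

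Stx1a encodes syntaxin-1A, the plasma membrane partner of SNAP-25. On D10392_i_at it read 411 and 422 in sham and 335, 342 and 405 after CCI at 14 days, every CCI array a little below sham (-0.20, adjusted p = 0.914). At 21 days sham read 160.4, 269 and 263 and CCI 529.7, 401 and 393, every CCI array above sham (0.91, SE 0.17, 1.94-fold, adjusted p = 0.0191). The difference of the 2 effects was 1.11 (adjusted p = 0.0409), where 0.915% of all probe sets were called higher and 0.881% lower. The CCI mean was 361 ± 38.7 (SD, n = 3) at 14 days and 441 ± 76.9 (SD, n = 3) at 21 days, while the 21-day sham arrays lay below the sham arrays of 14 days and of 50 days (395 and 409). The 21-day call was lost without CCI replicate 1 (0.78, adjusted p = 0.0806), with arrays centred on their median (0.74, adjusted p = 0.208) and with only the groups compared (adjusted p = 0.699). After Seltzer the values were 626 and 588 at 14 days, 273, 317 and 321 at 21 days and 511 and 443 at 50 days, each above sham of its day, with a mean change of 0.39 (adjusted p = 0.0698). The 50-day Seltzer values were below the background of their arrays. D12519_s_at was never above background (CCI change 0.06, SE 0.88).

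In the single-day comparisons as a whole, 3 of the 18 probe sets were called lower after CCI at 14 days (1.43% of all probe sets lower, 1.35% higher), and 3 lower and 1 higher at 21 days (0.389% lower, 0.538% higher). None was called after Seltzer at 14 days (0.0686% lower, 0.137% higher) or 21 days (0.114% lower, 0.263% higher) by limma, with 3 and 6 of the 18 at an unadjusted p below 0.05. At 50 days 3 were called lower and 3 higher, where 7.20% and 8.72% of all probe sets were. Centring each array on its median, which takes out a shift of 0.34 between the 50-day groups, turned this into 5 lower and 0 higher, and the 3-day Seltzer mean into 4 lower and 0 higher. Centring moves all probe sets of a comparison by the same amount, so the shares above do not apply to these counts. The Seltzer effect at 50 days differed from that at 21 days for 3 of the 18, 1 in the higher direction (Snap25 AB003991_at) and 2 in the lower (Syn2 rc_AI145494_at and Napa X89968_g_at), where 3.12% and 4.29% of all probe sets were called. No array of the 4 groups was above background on that Syn2 probe set, and both 50-day Seltzer values of Napa X89968_g_at were below 0, so the size of these log2 differences depends on the number added. The 50-day Seltzer group holds only the 2 arrays with the highest background.

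Syp encodes synaptophysin. Sham arrays read 1262 and 1062 at 14 days and 566, 910.4 and 702 at 21 days, and CCI 830.3, 601 and 677 at 14 days and 506, 550.5 and 620.4 at 21 days. The groups were apart at 14 days and overlapped at 21 days. The change after CCI was -0.53 (SE 0.21, 1.46-fold lower, adjusted p = 0.35), with all 6 arrays below the sham mean of their day, and it was not called. Seltzer arrays read 1082 and 732 at 14 days, 292, 582 and 739.7 at 21 days and 965 and 768 at 50 days, with sham at 1566 and 1499.7 at 50 days, and a change of -0.56 (SE 0.19, adjusted p = 0.124).

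Syt1, which encodes the calcium sensor synaptotagmin-1, read between -77.1 and 22.0 on every array, below background throughout, so its RNA could not be compared. Syn1, which encodes synapsin-1, was above background on 18 arrays and overlapped between CCI and sham at 14 and 21 days. It read 308 and 304 in sham and 226, 318 and 362 after CCI at 14 days, and 500.2, 369 and 341 (sham) and 507, 379.5 and 294 (CCI) at 21 days. The changes were -0.05 (SE 0.18, 95% interval -0.43 to 0.34, adjusted p = 1) after CCI and 0.05 (SE 0.16, adjusted p = 0.99) after Seltzer. The Seltzer mean averaged changes of unlike sign, -0.42, -0.11 and 0.66 at 14, 21 and 50 days. None was called by limma (adjusted p = 0.146 at 50 days). Seltzer arrays read 251 and 200.3 at 14 days, apart from sham, and 272, 380.4 and 483 at 21 days, overlapping it. At 50 days they read 675 and 792, against 473 and 439 in sham. Of these Seltzer arrays only replicate 2 was above background.

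Syn2, which encodes synapsin-2, gave a call that rests on the 14-day sham arrays. On rc_AI145494_at these read 285 and 372, while the other sham arrays read 56.4, 65.5 and 68.5 at 21 days and 30.8 and 53.9 at 50 days. CCI read 76.4, 68.3 and 75.5 at 14 days and 137, 84.5 and 97.9 at 21 days, none above background. The change was -1.94 at 14 days (SE 0.19, at least 1.62-fold lower, adjusted p = 4.12e-05) and 0.60 at 21 days (adjusted p = 0.148), and the 2 effects differed by 2.54 (adjusted p = 6.19e-05). The mean over both days was -0.67 (SE 0.12, adjusted p = 0.0114). Set against the sham arrays of 21 days in place of its own, it turned to 0.39 (adjusted p = 0.386), and the 14-day change alone to 0.17 (adjusted p = 0.962). It was also lost without Sham 14-day replicate 2 (-0.58, adjusted p = 0.0636) and with the dimmest 33.3% left out (adjusted p = 0.0536). Seltzer arrays read 225 and 249.9 at 14 days and 75.1, 87.6 and 70.0 at 21 days, then -5.91 and -31.0 at 50 days. The 21- and 50-day Seltzer values were all below background. The 3-day change of -0.68 (SE 0.11, adjusted p = 0.00349) shrank to -0.10 (adjusted p = 1) without the 50-day groups.

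The other Syn2 probe sets were not called in these comparisons. M27925_at read 160.3 and 185 at 14 days and 530.2, 252 and 238 at 21 days in sham, and 172, 151 and 185 at 14 days and 116, 206 and 97.3 at 21 days after CCI, overlapping at 14 days and apart at 21 days. Its change was -0.60 (SE 0.29, adjusted p = 0.494) after CCI and -0.71 (SE 0.25, adjusted p = 0.148) after Seltzer, and it was above background on 4 arrays. rc_AI145494_g_at never was, with changes of -0.53 and -0.20. Differences in CCI change between the 3 Syn2 probe sets had exact permutation p of 0.805 to 0.925.

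**Figure D4:**
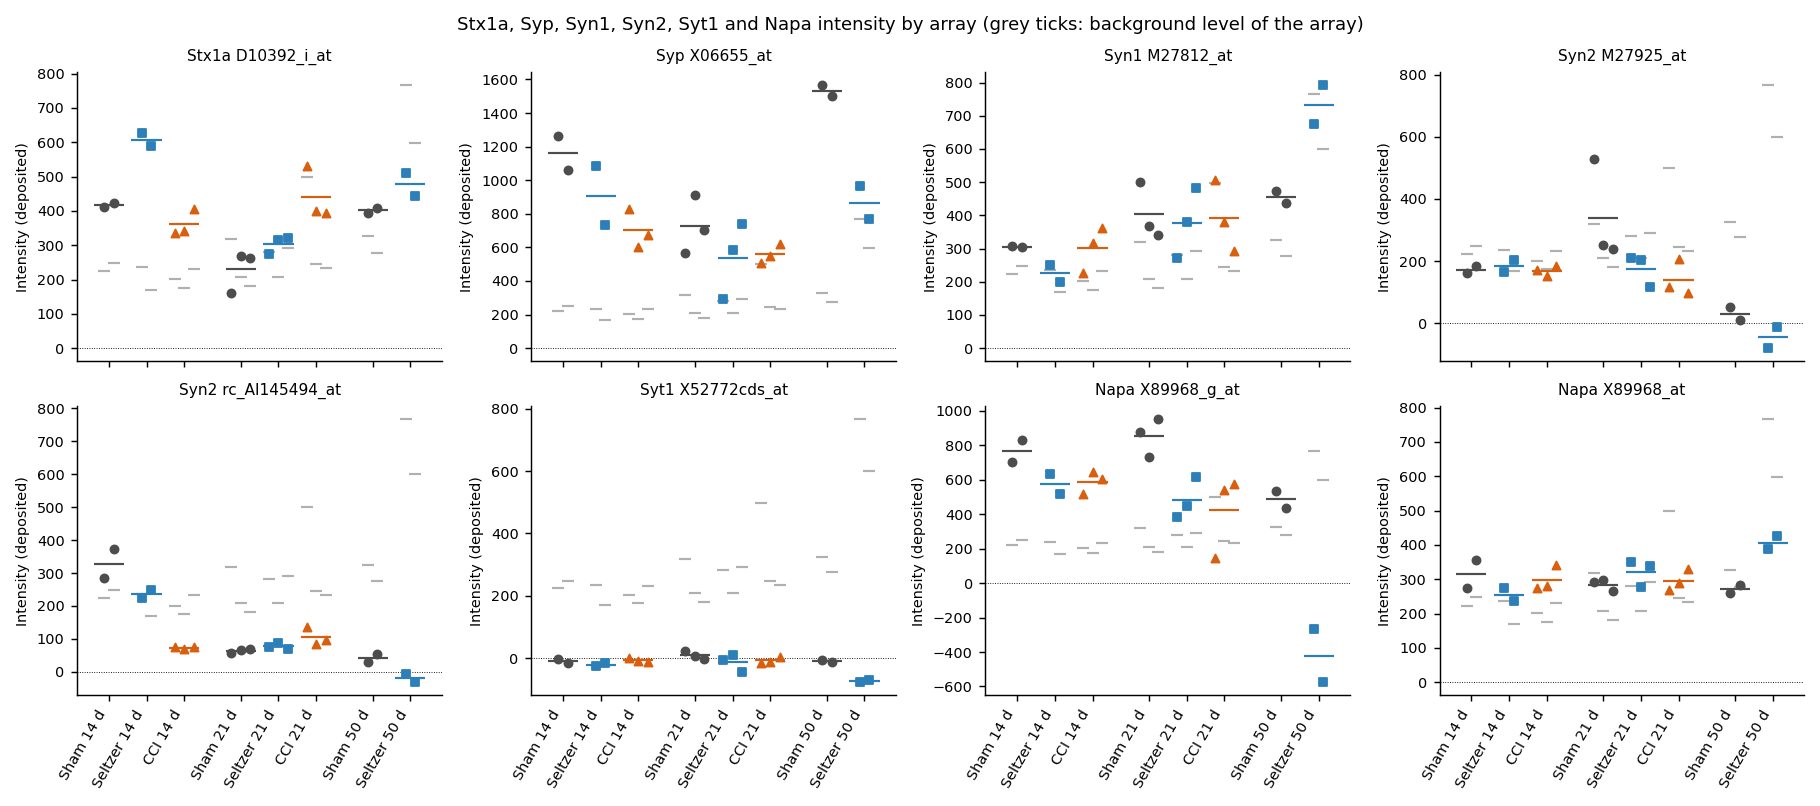
Deposited intensity by array for probe sets of Stx1a, Syp, Syn1, Syn2, Syt1 and Napa, with group means as bars and grey ticks for the background level of each array. On Stx1a D10392_i_at the 21-day sham arrays, between 160.4 and 269, lie below the sham arrays of the other days; on Syn2 rc_AI145494_at the 14-day sham arrays, at 285 and 372, lie above all other arrays; on Napa X89968_g_at both 50-day Seltzer arrays lie below 0.

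Napa gave different readings on its 2 probe sets, both from 1 sequence record. X89968_g_at read 701 and 828 in sham and 519.5, 645 and 602 after CCI at 14 days, and 878, 730.0 and 952 (sham) and 148, 541 and 577 (CCI) at 21 days. Every CCI array was below the sham arrays of its day, the lowest being CCI 21-day replicate 1. The change was -0.78 (SE 0.28, 1.75-fold lower, adjusted p = 0.271), not called. X89968_at read 275 and 357 (sham) and 276, 279 and 341 (CCI) at 14 days, and 291, 297 and 264 (sham) and 268, 289 and 328 (CCI) at 21 days, overlapping at both, with a change of -0.01 (SE 0.09, 95% interval -0.21 to 0.19, adjusted p = 1). The 2 differed by 0.77 after CCI (exact permutation p = 0.01, adjusted p = 0.0262) and by 2.21 after Seltzer (exact permutation p = 0.00278, adjusted p = 0.0189). With values below 200 set to 200 these were 0.70 (adjusted exact permutation p = 0.034) and 0.96 (0.027).

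The Seltzer change of Napa X89968_g_at was -2.06 (SE 0.25, adjusted p = 0.000326). It rested on the 50-day arrays, at -269 and -575 against 537 and 436 in sham, a change of -4.97 (adjusted p = 1.47e-05) that was lost with values below 200 set to 200 (-1.21, adjusted p = 0.0587). Both sham values lay below the background of the Seltzer arrays (766 and 599), so no fold could be bounded at that day. The earlier arrays read 635 and 519 at 14 days and 382, 446 and 619 at 21 days, and over those days alone the change was -0.61 (adjusted p = 1). At 50 days X89968_at read 388 and 426 after Seltzer, below background, and 260.2 and 282 in sham (0.56, adjusted p = 0.0235). That call was lost in 8 of 28 other settings, including the removal of any of the 4 arrays (adjusted p = 0.0601 to 0.123), centring on the median (0.22, adjusted p = 0.6) and quantile normalization (0.11, adjusted p = 0.914).

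The sham arrays themselves differed with the day for 6 of the 18 probe sets by an F test of limma, where 8.48% of all probe sets did. These were Vamp1 M24104_at (adjusted p = 0.000334), Snap25 AB003991_g_at (5.61e-05) and AB003992_s_at (0.00873), Stx1a D10392_i_at (0.0129), and Syn2 M27925_at (0.00155) and rc_AI145494_at (7.71e-06). The probe set of Vamp1 and those of Snap25 were higher in sham at 14 and 21 days than at 50 days, where Vamp1 M24104_at read below 0. The 50-day sham arrays also had a GAPDH 3′ to middle ratio of 2.84 and 2.85, against at most 1.90 on the other sham arrays. Their actin 3′ to 5′ ratio, 2.35 and 1.66, lay within that of the other sham arrays (1.30 to 2.40). The part of array quality in these differences was not tested. Stx1a D10392_i_at and Syn2 rc_AI145494_at are the probe sets above whose CCI effects differed between 14 and 21 days, the first with low sham values at 21 days and the second with high ones at 14 days.

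Other genes of the release machinery were taken from lists of 95 genes, of which 71 were measured on 97 probe sets. By limma, none was called after CCI (12 of the 97, 12.4%, at an unadjusted p below 0.05, against 10.7% of all probe sets) or between CCI and Seltzer (6, or 6.19%, against 8.98%). By list, the median CCI change was 0.00 over 22 probe sets of other plasma membrane and Golgi SNAREs (15 genes), -0.08 over 21 of fusion regulators (18 genes), -0.20 over 12 of other synaptotagmins (11 genes), 0.02 over 20 of vesicle membrane and cluster proteins (13 genes), and -0.21 over 22 of vesicle recycling proteins (14 genes). After Seltzer 2 (2.06%) were called higher and 4 (4.12%) lower, against 1.92% and 2.46% of all probe sets. Cadps, which primes dense-core vesicles for release, was at -0.42 (adjusted p = 0.0403, CCI -0.46, adjusted p = 0.0705). Dnajc5, the vesicle chaperone cysteine string protein that protects SNAP-25, was at -0.38 on rc_AA859806_at (adjusted p = 0.00798), with -0.99 at 50 days and -0.11 and -0.05 at 14 and 21 days. Slc32a1, the vesicular GABA transporter, was at 1.26 (adjusted p = 0.0281) on a probe set that was above background on no array. The other 3 called had changes of unlike sign between days.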

How the data were processed

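Total RNA of 20 rat dorsal root ganglion samples was read on Affymetrix rat arrays. The authors deposited 1 linear intensity per probe set and array (8799 probe sets, 29% of values below 0). No software, background step or scaling is stated for them, and none was assumed. Array medians ran from 43.2 to 76.5, and the number of arrays limits the precision. The 59 control probe sets were left out, leaving 8740, of which 7006 had 1 gene symbol in the platform's table, 308 several and 1426 none.

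The log2 of the intensity plus 16 was used, with negative values at 0. Means of the 8 groups were fitted with limma 3.58.1 (R 4.3.3; lmFit, eBayes, 12 residual degrees of freedom), two-sided, with Benjamini-Hochberg adjustment over all 8740 probe sets and a threshold of 0.05. Folds are ratios of geometric means. If no array of the dimmer group exceeded background, its background level took the place of its mean and the fold is a bound ("at least"). Bounds under 1, and folds with both groups below background, were left out. Differences between 2 probe sets were taken per array and tested by exact permutation of group labels within day, adjusted over the 34 pairs. The brighter probe set of a gene is that with the higher mean log2 value. The scripts were tested on simulated data. Figures used Python 3.11.15 and matplotlib 3.10.9.

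Members and gene lists were chosen with earlier results of these data known. All member probe sets are described; of each list of related genes, those called in a mean contrast with day changes of 1 sign are named, up to 4 each way; and for the brighter Vamp1 and Vamp2 probe sets, the 3 genes of highest Pearson r over group means. Same-numbered Seltzer and Sham samples at 21 days deviated together (correlations 0.299, 0.226 and 0.110), which pairs them by their values and not by any label; same-numbered samples of other groups did not all do so. Alternatives were other added constants, a floor of 200, quantile normalization, median centring, the dimmest 33.3% left out, only the groups compared, other controls or days, a replicate block and each array left out. RefSeq promoter windows (GRCr8) covered 8 of the 9 genes. Probe and protein sequences were not used here.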

Additional observations from a re-analysis of the deposited data

Results flagged for a closer look

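In all, 6 results stood out because an effect differed between the models or between days, by a limma test of the difference itself with adjustment over all 8740 probe sets. Vamp1 M24104_at was lower after CCI than after Seltzer over 14 and 21 days by -2.54 (adjusted p = 0.0025), with no array of either group above background, and by -0.03 (adjusted p = 0.875) with values below 200 set to 200. The CCI effect on Stx1a D10392_i_at was higher at 21 than at 14 days by 1.11 (adjusted p = 0.0409), and that on Syn2 rc_AI145494_at, above background in the 14-day sham group alone of the 4, by 2.54 (adjusted p = 6.19e-05). The Seltzer effect at 50 minus that at 21 days was 1.06 for Snap25 AB003991_at (adjusted p = 0.0113), -2.07 for Syn2 rc_AI145494_at (adjusted p = 0.000414) and -4.14 for Napa X89968_g_at (adjusted p = 0.00106). In the Syn2 comparison no array of the 4 groups was above background, and for Napa both 50-day Seltzer values were below 0, so these log2 sizes depend on the number added. With values below 200 set to 200 the 50-day Seltzer change itself was 0 for Syn2 (adjusted p = 1) and -1.21 for Napa (adjusted p = 0.0587). The last 3 rest on the 2 Seltzer arrays of high background at 50 days. The tests between days were added after the data had been seen. No group had the 4 samples needed to look for single outlying arrays.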

How the results depend on the processing

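The CCI call of Vamp1 M24104_at and the CCI call of Snap25 AB003991_g_at held under all 30 alternatives run for them over 14 and 21 days. The shares of all probe sets given earlier belong to the main comparisons. A change of the counts below under another setting therefore cannot be told from a change over all probe sets. Of the 18 probe sets, 4 were called after CCI over both days and 2 with the dimmest 33.3% left out. At 21 days 4 were called, but 2 with arrays centred on their median, with the dimmest 33.3% left out or with only the groups compared, and 1 without the 3 arrays of highest background, a setting chosen after seeing the data. Between CCI and Seltzer 1 was called, but 2 with 64 added or without those 3 arrays, and 0 with only the groups compared or with values below 200 set to 200. Of the Seltzer counts, that over 3 days went from 4 to 0 with 14 and 21 days only. With values below 200 set to 200, the counts at 14 and 21 days went from 0 to 1 each and that at 50 days from 6 to 3. With only the groups compared, the count at 50 days was 2 and the sham count over days went from 6 to 3. Leaving out 1 array at a time gave 1 to 2 calls between CCI and Seltzer, 2 to 4 for CCI at 21 days (2 without CCI replicate 1), 0 to 1 for Seltzer at 21 days and 2 to 8 at 50 days (2 without Sham replicate 1). The Vamp1 minus Vamp2 difference after CCI ran from -1.82 to -0.74 in this way, was -0.61 with values below 200 set to 200 (a floor extended to all pairs after seeing the data), and was -1.50 after CCI and -0.39 after Seltzer with probe sets M24104_g_at and rc_AI101103_s_at. With the 21-day sham arrays as control, Syn2 rc_AI145494_at reversed to 0.39 over both days and 0.17 at 14 days. With a replicate block the CCI count stayed at 4, the 3-day Seltzer count was 5 and the 50-day count 7 (Snap25 AB003992_s_at added in both), the Vamp1 minus Vamp2 differences were -1.52 and -0.69, and no other call described changed. Where leaving out 1 array left a group with 1 sample, that sample was assumed to vary like the other groups. Where the cause of a change is not plain from how the alternative was built, the cause was not tested. Probe sets below background limit Syt1, Vamp1 M24104_at and Syn2 most.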
